A study of Rattus norvegicus with 9 samples.

Results

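The expression of the fibroblast matrix genes COL1A2, DCN, LUM and FN1 was described in RNA-seq of cultured cardiac fibroblasts (CFs) from neonatal rats. These 4 genes were taken by name from the 22512 genes listed. There were 9 libraries, with 3 from untreated cells (blank group), 3 from cells given AngII at 0.1 µM for 72 h (AngII group), and 3 from cells given vericiguat at 1.0 µM for 24 h before the same AngII treatment (vericiguat + AngII group). These times come from the labels, whereas the study's methods give no times for the sequenced cells and describe, for a migration assay, AngII first and vericiguat after it. AngII is angiotensin II, a peptide hormone used to activate CFs, and vericiguat stimulates soluble guanylate cyclase, which makes cGMP. All groups shared the isolation of CFs by differential adherence and the passaging of the cells before use, and nothing states whether the 3 libraries of a group came from separate animals, so the p-values measure only the spread between these libraries.

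COL1A2 encodes the α2 chain of type I collagen, the main fibril-forming collagen of the heart. DCN (decorin) and LUM (lumican) are small leucine-rich proteoglycans that bind to collagen fibrils and limit their growth and spacing. FN1 encodes fibronectin, an adhesive glycoprotein on which cells assemble new matrix. CFs are the main source of these proteins in the heart, and activated CFs, called myofibroblasts, deposit more of them in fibrosis.

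The values were FPKM, the number of fragments per kilobase of gene and per 1000000 mapped fragments, so levels of different genes are given per length, as far as the gene models used fit the transcripts. The table holds no counts, and the depth behind each value is unknown. The labels name the rat, while the submitters' processing notes name the genome build OryCun2.0, a rabbit assembly. Of the 20346 genes listed by a LOC number, 0 have a number that is a rat gene identifier in the RefSeq table of GRCr8, and the 4 matrix genes were matched by symbol alone. How this bears on the values was not tested. A set of 13 entries whose names start with KEF51 held between 96.7% and 97.9% of the summed FPKM in the blank and AngII libraries and between 45.3% and 52.3% in the vericiguat + AngII libraries. Of the remaining sum, the single entry ADORA1-2 held 59.7% to 90.0% in the blank and AngII libraries and 17.1% to 27.8% in the vericiguat + AngII libraries. The number of genes above 0 was 16445 to 16751 in the vericiguat + AngII libraries, 8911 to 10425 in 5 of the other libraries and 5498 in blank library 2, which stands apart. The label of CFs comes from the sample titles. For the further fibroblast markers COL1A1, COL3A1, PDGFRA, THY1, TCF21, DDR2 and VIM, no entry was found by symbol. The values of COL1A2, DCN, LUM and FN1 do not establish the cell type.

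Sequence before the gene start was found in RefSeq for the rat genes Col1a2 and Lum, in build GRCr8, and not for Dcn or Fn1. It is shown for these genes because such sequence was found for them. Whether it bears on the ratio of COL1A2 to LUM, given with the ratios, was not tested. Each run covers the bases from 250 to 101 before the annotated start, on the plus strand, at chr4:33518307-33518456 for Col1a2 and at chr7:34245456-34245605 for Lum. The capitals mark the TATA box motif (TATAAA) and the CCAAT box motif, which lies on the minus strand in both genes, and the motifs do not overlap.
Col1a2: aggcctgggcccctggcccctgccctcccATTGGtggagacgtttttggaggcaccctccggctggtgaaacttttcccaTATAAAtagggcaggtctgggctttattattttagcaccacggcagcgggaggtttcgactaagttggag
Lum: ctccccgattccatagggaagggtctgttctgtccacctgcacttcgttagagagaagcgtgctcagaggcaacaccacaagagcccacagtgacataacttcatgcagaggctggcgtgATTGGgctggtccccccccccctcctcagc
Both windows hold the CCAAT box motif, and the Col1a2 window also holds the TATA box motif. Counting both strands, the TATA box motif occurs in 7.69% and the CCAAT box motif in 21.5% of the 33469 RefSeq windows of the same length. The GC box motif (GGGCGG) was searched too and occurs in 16.5% of those windows, but in neither of the 2 shown. These matches describe the letters only, and no expression value was read from this build.

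On the deposited scale, all 4 genes were higher in every vericiguat + AngII library than in every other library. COL1A2 had FPKM of 0.698, 0.0600 and 0.444 in blank libraries 1, 2 and 3, of 5.13, 0.303 and 1.76 in the AngII libraries, and of 15.1, 16.2 and 13.1 in the vericiguat + AngII libraries. Its AngII libraries differed 16.9-fold among themselves, and AngII library 2 lay below blank libraries 1 and 3. DCN, the most abundant of the 4 genes in every library, had FPKM of 14.6, 1.21 and 8.37 in the blank libraries, of 13.3, 5.00 and 13.3 in the AngII libraries, and of 403, 283 and 248 in the vericiguat + AngII libraries. LUM had FPKM of 7.92, 0.409 and 2.95 in the blank libraries, of 6.96, 1.80 and 3.73 in the AngII libraries, and of 96.5, 93.3 and 92.3 in the vericiguat + AngII libraries. For both proteoglycans the blank and AngII libraries overlapped. FN1 had FPKM of 1.48, 0.0230 and 0.831 in the blank libraries, of 0.392 in AngII library 1 and 0.422 in AngII library 3, and of 12.3, 10.1 and 13.9 in the vericiguat + AngII libraries. In AngII library 2, FN1 is listed at 0. The same library has ACTA2, the smooth muscle actin of myofibroblasts, listed at 0. Of all 22512 genes, 12291 are listed at 0 in that library, beside 12074 and 12597 in AngII libraries 1 and 3.

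**Figure D1:**
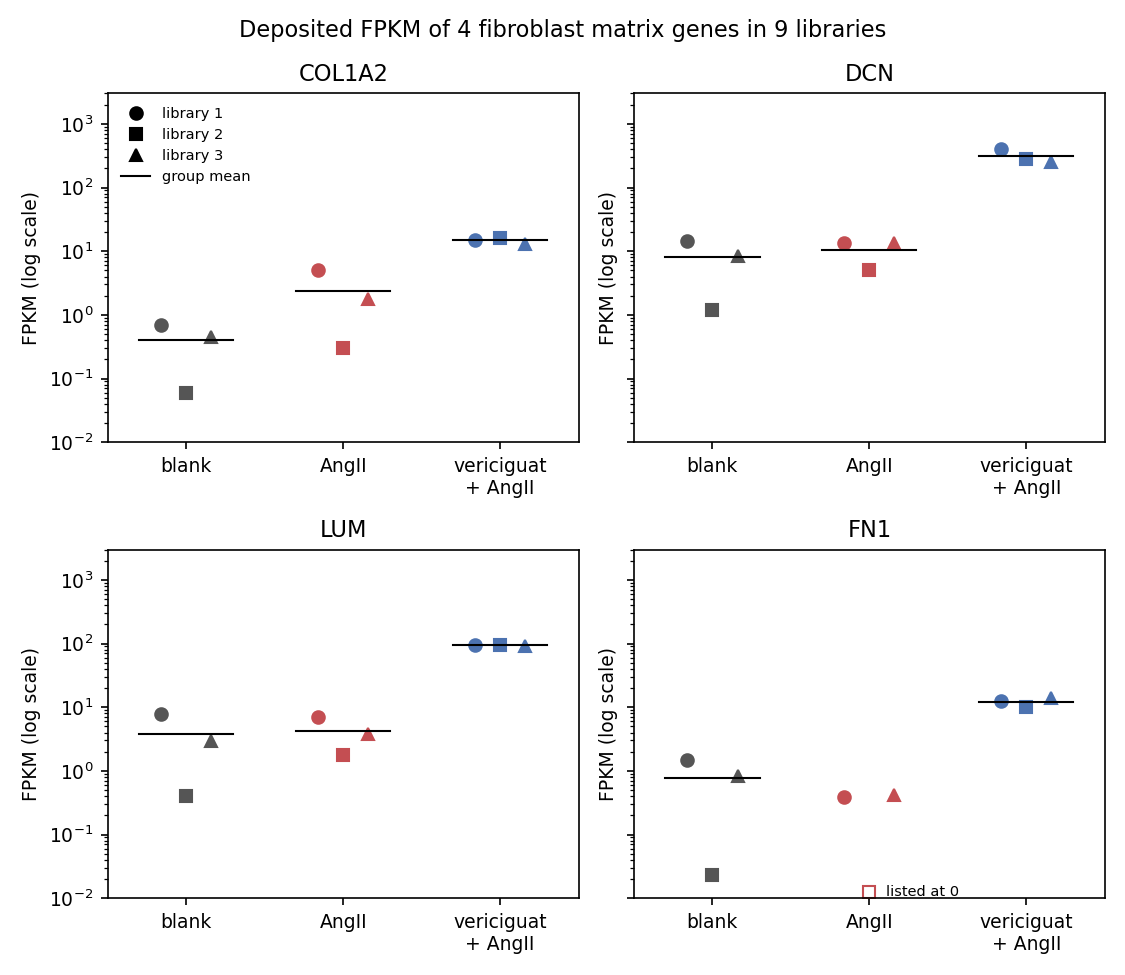
FPKM (log axis) of COL1A2, DCN, LUM and FN1 in the 3 libraries of each group, with symbols for the library number and lines for the group mean (none for FN1 in AngII, which has a library listed at 0, drawn open). The vericiguat + AngII libraries lie above all others for each gene, and blank library 2 is the lowest of the blank libraries.

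The mean FPKM of DCN rose from 8.07 ± 6.70 (SD, n = 3) in blank and 10.5 ± 4.79 (SD, n = 3) in AngII to 311 ± 81.2 (SD, n = 3) in vericiguat + AngII. On the log2(FPKM + 1) scale, in a limma fit over 10908 genes, the difference between vericiguat + AngII and AngII was 2.49 ± 0.44 (SE) for COL1A2, 4.84 ± 0.75 for DCN, 4.33 ± 0.62 for LUM and 3.38 ± 0.29 for FN1. The adjusted p-values were 0.00018, 5.4e-05, 3.0e-05 and 2.4e-07. Against blank, the differences were 3.51, 5.48, 4.69 and 2.97, with limma adjusted p-values of at most 1.8e-05. A gene was called when its log2 difference was at least 1 in size and its Benjamini-Hochberg adjusted p was below 0.05. All 4 genes passed the filter on low values (3 or more libraries reaching FPKM 1), but COL1A2 and FN1 passed only through the vericiguat + AngII libraries, where they are high. All 4 were called in both comparisons, as were 99.6% of all tested genes against AngII and 99.4% against blank. The ranges of the groups did not overlap for 99.8% and 99.7% of all tested genes. Of the tested genes other than the KEF51 entries, 10895 in all, 8383 reached FPKM 1 in all 3 vericiguat + AngII libraries and in no other library. The filter thus mostly took in genes that are high in the treated cells, and the position of the 4 genes against such a median is given as a description only. The median of all genes moved by 2.76 and 2.83, and relative to it the log2 difference against AngII was -0.28 for COL1A2, 2.07 for DCN, 1.57 for LUM and 0.61 for FN1.

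Between AngII and blank, 0 of the 4 genes were called on the deposited scale, against 1.55% of all tested genes. The log2 differences were 1.03 ± 0.44 (SE) for COL1A2, 0.64 ± 0.75 for DCN, 0.36 ± 0.62 for LUM and -0.41 ± 0.29 for FN1, with limma adjusted p-values of 0.32, 0.81, 0.91 and 0.61. COL1A2 was the only 1 of the 4 below 0.05 without adjustment. FN1 was lower in all 3 AngII libraries than in blank libraries 1 and 3, but not than in blank library 2. None of the 4 genes had groups without overlap, which 21.3% of all tested genes had. Without AngII library 2, COL1A2 was called, with a log2 difference of 1.58 and a limma adjusted p of 0.043. Without blank library 2, the differences of DCN and LUM turned to -0.18 and -0.33.

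To take out the KEF51 entries, each gene was also expressed per 1000000 of the summed FPKM of all other genes in its library. On this relative scale, 0 of the 4 genes were called between AngII and blank (6.42% of all tested genes), 0 between vericiguat + AngII and AngII (77.0%), and 1 between vericiguat + AngII and blank (79.2%). Without adjustment, the limma p of FN1 was also below 0.05 between vericiguat + AngII and AngII. The called gene was DCN, with a relative level of 471, 33.4 and 222 in blank, 290, 86.7 and 247 in AngII, and 945, 659 and 573 in vericiguat + AngII. Its log2 difference against blank was 2.21 ± 0.91 (SE), with a limma adjusted p of 0.042, which fell to 1.13 with an adjusted p of 0.11 without blank library 2. Against the median of all genes, which moved by 2.52 in this comparison, the differences of the 4 genes were -0.59 for COL1A2, -0.31 for DCN, -0.71 for LUM and -1.27 for FN1.

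This sum is itself dominated by few entries. The 20 highest genes of each single library held 72.5% to 96.4% of it in the blank and AngII libraries. In the vericiguat + AngII libraries they held 31.0% to 41.7%. As a further scale, the 20 genes with the highest mean relative level over the 9 libraries, the same set for every library, were also left out of the sum. The level of each of the 4 genes in the vericiguat + AngII libraries then lay within the range of the other 6 libraries. DCN then had levels of 1566, 871 and 1631 in blank, 1694, 593 and 1511 in AngII, and 1363, 1012 and 980 in vericiguat + AngII. LUM had 848, 294 and 575 in blank, 889, 213 and 423 in AngII, and 326, 334 and 364 in vericiguat + AngII. For both proteoglycans all 3 groups overlapped on this scale. The SD of each of the 4 genes was smallest in the vericiguat + AngII group, where LUM was at 341 ± 19.99 (SD, n = 3).

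COL1A2 had levels of 74.8, 43.1 and 86.5 in blank, 656, 36.0 and 200.1 in AngII, and 50.9, 58.0 and 51.5 in vericiguat + AngII, on the sum without the 20 genes. AngII libraries 1 and 3 lay above all libraries of the other groups, and AngII library 2 lay below all of them. FN1 had levels of 158, 16.5 and 162 in blank, 50.1, 0 and 47.9 in AngII, and 41.7, 36.3 and 54.9 in vericiguat + AngII. Blank libraries 1 and 3 had the highest FN1 levels of the 9 libraries on this scale.

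**Figure D2:**
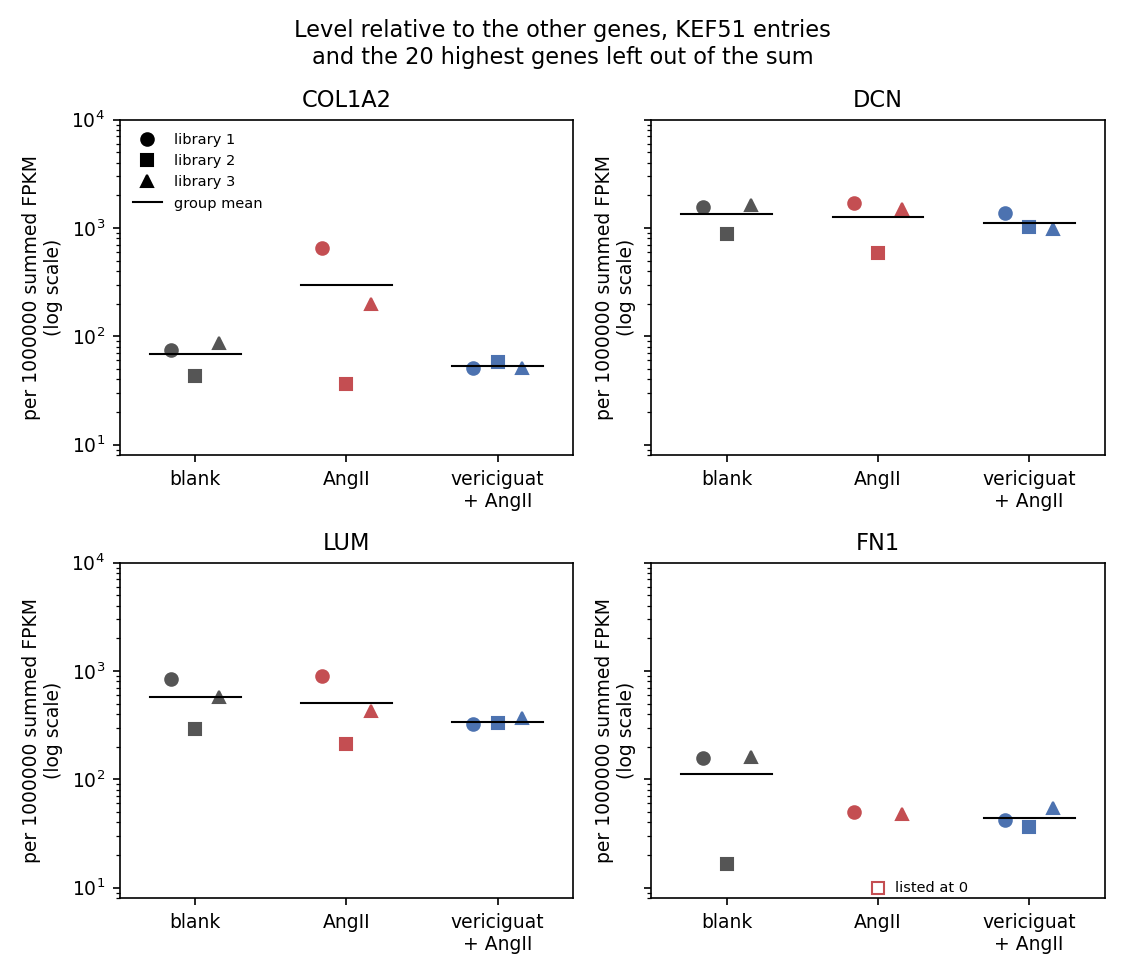
Level per 1000000 of summed FPKM (log axis) of the 4 genes in each library, with the KEF51 entries and the 20 highest genes left out of the sum. Lines are group means (none for FN1 in AngII). DCN and LUM overlap between all groups, COL1A2 is high in AngII libraries 1 and 3, and FN1 is high in blank libraries 1 and 3.

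In the limma fit to these levels, 0 of the 4 genes were called in any comparison, also at an unadjusted p below 0.05, while 13.0% of all tested genes were called between AngII and blank, 9.69% between vericiguat + AngII and AngII, and 30.6% between vericiguat + AngII and blank. The log2 differences between vericiguat + AngII and blank were -0.29 ± 0.90 (SE) for COL1A2, -0.24 ± 0.44 for DCN, -0.62 ± 0.55 for LUM and -0.78 ± 1.53 for FN1, with adjusted p-values from 0.42 to 0.83. All 4 thus changed sign from the positive differences on the relative scale. Between vericiguat + AngII and AngII, COL1A2 had -1.64, DCN -0.06 and LUM -0.34, also with the sign opposite to that on the relative scale, and FN1 had 1.72. Between AngII and blank, COL1A2 had 1.35, DCN -0.18, LUM -0.28 and FN1 -2.50, the last resting on a library listed at 0. The median of all genes was 0.34, 1.01 and 1.51 in AngII against blank, vericiguat + AngII against AngII and vericiguat + AngII against blank, with the limit that the filter sets on the last 2 values.

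**Figure D3:**
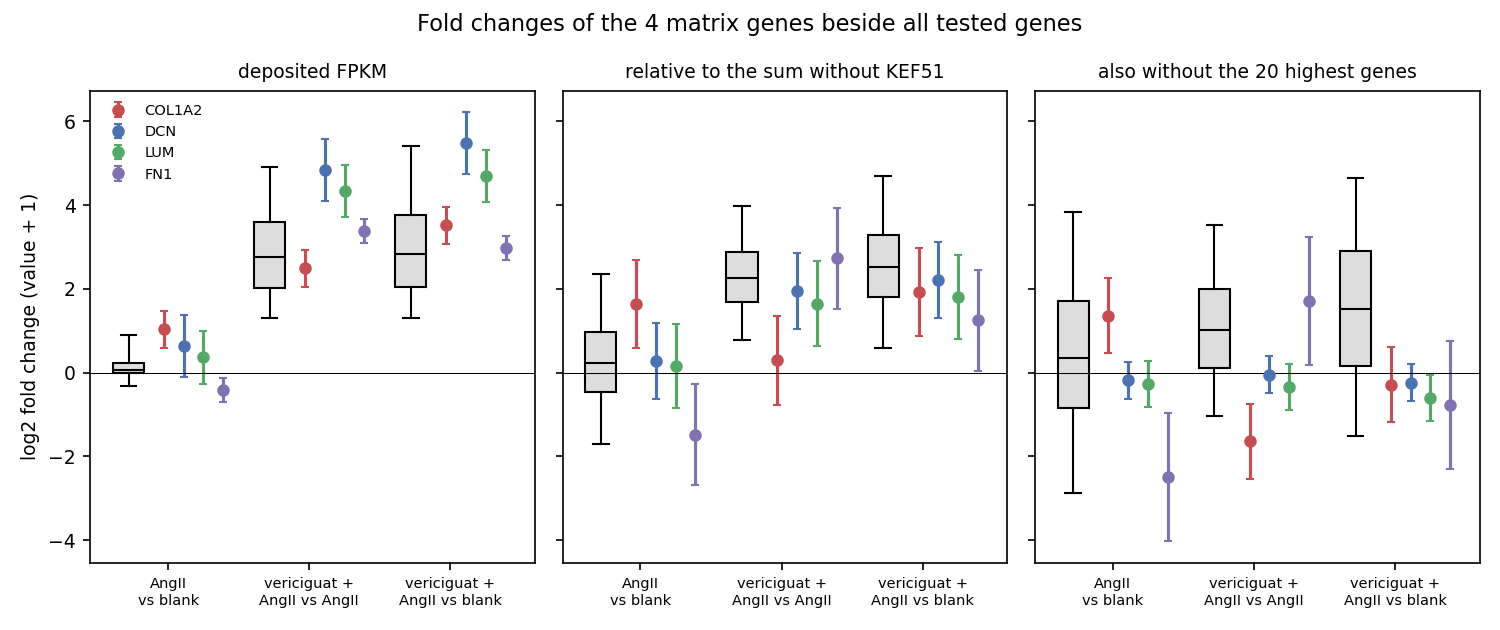
Log2 fold changes (value + 1) of the 4 genes with standard errors, beside boxes for all tested genes (median, quartiles, and whiskers at the 5th and 95th percentiles), in 3 comparisons and on 3 scales. The positive differences of the vericiguat + AngII group on the deposited scale shrink on the relative scale, and for COL1A2, DCN and LUM fall to or below 0 when the 20 highest genes are left out of the sum.

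Ratios between the 4 genes within a library do not depend on its scaling. The ratio of DCN to LUM was 1.85, 2.96 and 2.84 in blank, 1.91, 2.78 and 3.57 in AngII, and 4.18, 3.03 and 2.69 in vericiguat + AngII. The groups overlapped, and the 2-sided exact permutation p was 0.8 for AngII against blank, 0.5 for vericiguat + AngII against AngII and 0.4 for vericiguat + AngII against blank. The ratio thus lay between 1.85 and 4.18 in the 9 libraries. In FPKM, DCN ranged from 1.21 to 403 and LUM from 0.409 to 96.5, but library scaling moves FPKM and cancels in any ratio. With the 20 highest genes left out of the sum, DCN ranged from 593 to 1694 and LUM from 213 to 889. How steady the ratios of other gene pairs were was not determined.

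The ratio of COL1A2 to DCN was highest in the AngII group. It was 0.0478, 0.0495 and 0.0530 in blank, 0.387, 0.0607 and 0.132 in AngII, and 0.0374, 0.0573 and 0.0525 in vericiguat + AngII. Each AngII library lay above all libraries of both other groups, though AngII library 2 only by a small margin. The mean log2 ratio was higher in AngII than in blank by 1.54, with exact permutation p = 0.1, the smallest that 3 libraries against 3 can give, and 0.4 after adjustment over the 12 ratios tested. Vericiguat + AngII was lower than AngII by the same measure, with a difference of -1.60 and the same exact p-values, and differed from blank by -0.05, with exact permutation p = 0.9. The comparisons share the AngII libraries and so are not independent of each other. How many of all tested genes separate the groups relative to DCN, LUM or FN1 was not determined. In FPKM alone, 21.3% of all tested genes had AngII and blank groups without overlap. The separations by ratio are thus given as a description.

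The ratio of COL1A2 to LUM was 0.0882, 0.147 and 0.150 in blank, 0.737, 0.169 and 0.473 in AngII, and 0.156, 0.174 and 0.141 in vericiguat + AngII. It was higher in AngII than in blank without overlap, by 1.64 on the log2 scale (exact permutation p = 0.1, adjusted 0.4). Vericiguat + AngII overlapped with AngII, since AngII library 2 lay below vericiguat + AngII library 2.

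The ratio of COL1A2 to FN1 was 0.473, 2.61 and 0.534 in blank, 13.1 and 4.18 in AngII libraries 1 and 3, and 1.22, 1.60 and 0.939 in vericiguat + AngII. AngII library 2 gives no ratio, as FN1 is listed at 0 there. With 0.01 FPKM added to both genes, an alternative chosen after seeing the data, the mean log2 ratio in AngII differed from blank by 3.85, and vericiguat + AngII differed from AngII by -3.27, both without overlap. The exact permutation p was 0.1 for each, and 0.24 after adjustment over 6 ratios. In AngII library 2 the log2 ratio was 4.97, a size set by the 0.01 that stands for FN1, so both differences depend on that choice. Without it, the mean log2 ratio was 2.89 in AngII libraries 1 and 3, -0.20 in blank and 0.29 in vericiguat + AngII.

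**Figure D4:**
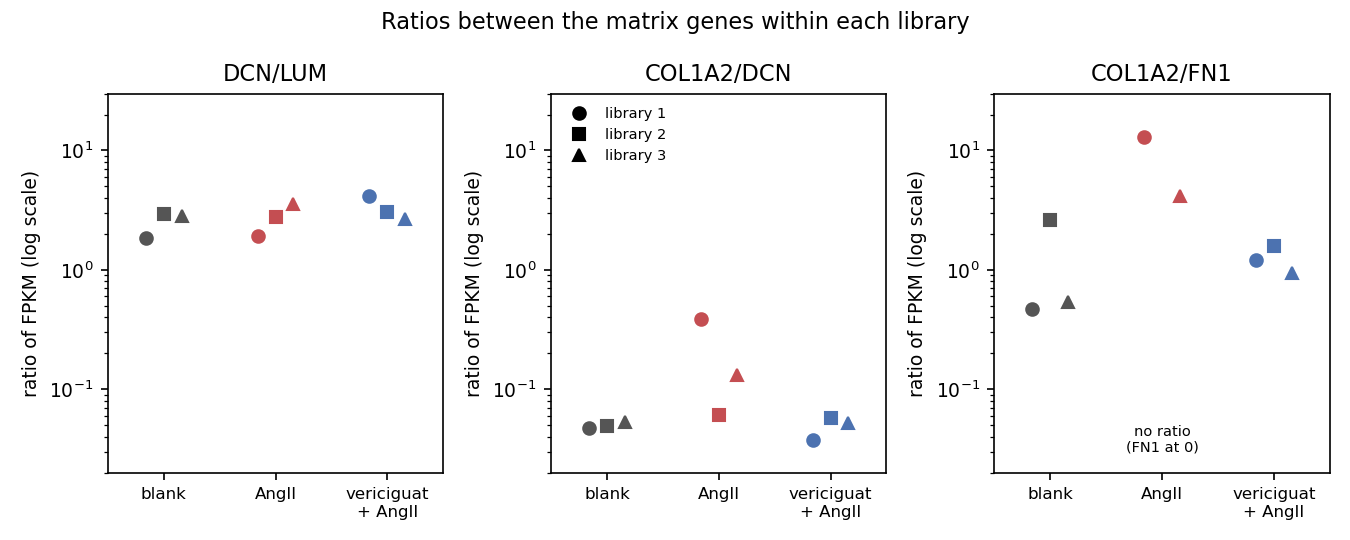
Ratios of FPKM (log axis) within each library for DCN to LUM, COL1A2 to DCN and COL1A2 to FN1, by group and library number. DCN to LUM overlaps between the groups, and COL1A2 to DCN is highest in the AngII libraries, with 0.387, 0.0607 and 0.132.

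As a share of the summed FPKM of the 4 genes, COL1A2 took 3.29% ± 0.40 (SD, n = 3) in blank, 11.1% ± 8.01 in AngII and 3.48% ± 0.59 in vericiguat + AngII. The AngII libraries had 19.9%, 4.27% and 9.17%, all above the highest value of the other groups, 4.03% (exact permutation p = 0.1 against each, adjusted 0.4 over 12 shares). DCN took 65.6% ± 6.04 in blank, 63.7% ± 10.6 in AngII and 71.4% ± 4.57 in vericiguat + AngII, and LUM took 26.5%, 23.9% and 22.2% on average, with overlap between all groups. FN1 took 5.97%, 1.35% and 6.60% in blank, 1.52%, 0% and 2.19% in AngII, and 2.34%, 2.52% and 3.78% in vericiguat + AngII. The FN1 shares of AngII and vericiguat + AngII did not overlap (exact permutation p = 0.1, adjusted 0.4), and those of blank overlapped with both. How many other genes would separate the groups by such a share was not determined.

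Among the genes above 0 in the same library, KEF51 entries left out, DCN lay between percentiles 96.2 and 99.1 in all 9 libraries, and LUM between 89.7 and 98.0. The percentile of COL1A2 was 77.5, 44.7 and 79.3 in blank, 97.5, 61.4 and 92.5 in AngII, and 81.1, 83.6 and 80.3 in vericiguat + AngII. In AngII library 1 it thus came close to LUM, at 97.9. FN1 was at 88.7, 16.4 and 88.5 in blank, at 75.5 and 74.3 in AngII libraries 1 and 3, and at 77.2, 75.02 and 81.4 in vericiguat + AngII. The order DCN above LUM, and LUM above COL1A2 and FN1, held in all 9 libraries, while COL1A2 and FN1 changed places. FN1 was above COL1A2 in blank libraries 1 and 3 and in vericiguat + AngII library 3, and below it in the other 6 libraries. Since the number of genes above 0 differed between libraries, equal percentiles are not equal places. Counted from the top, COL1A2 was at place 2096, 3023 and 1841 in blank and 264, 3938 and 747 in AngII. In vericiguat + AngII it was at 3170, 2697 and 3243.

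Blank library 2 was the lowest of the blank libraries for all 4 genes. Blank library 1 exceeded it in FPKM by 11.6-fold for COL1A2, 12.1-fold for DCN, 19.4-fold for LUM and 64.2-fold for FN1. With the 20 highest genes left out of the sum, these ratios were 1.73, 1.80, 2.89 and 9.57, so that the gap between these libraries stayed widest for FN1.

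GAPDH, an enzyme of glycolysis, and ACTB, the cytoskeletal β-actin, served as reference genes. They were themselves uneven, with ACTB at FPKM of 43.0, 3.07 and 22.3 in blank, 5.35, 7.06 and 3.55 in AngII, and 727, 660 and 779 in vericiguat + AngII. Relative to ACTB, COL1A2 was at 1.62%, 1.95% and 1.99% in blank, at 95.8%, 4.29% and 49.7% in AngII, and at 2.07%, 2.46% and 1.68% in vericiguat + AngII. COL1A2, DCN and LUM were each higher relative to ACTB in AngII than in blank without overlap, by 3.89, 2.34 and 2.25 on the log2 scale (exact permutation p = 0.1 each, adjusted 0.33 over 20 ratios). They were also lower relative to ACTB in vericiguat + AngII than in AngII without overlap, with log2 differences of -3.74, -2.15 and -2.43 and the same exact p-values. With the 20 highest genes left out of the sum, ACTB itself had levels of 684, 838 and 403 in AngII, 4607, 2208 and 4337 in blank, and 2459, 2363 and 3073 in vericiguat + AngII. On that scale ACTB was thus lower in every AngII library than in every other library, and it is the denominator of all 3 ratios. How many of all tested genes separate the groups relative to ACTB was not determined. Relative to GAPDH, COL1A2, DCN and LUM differed between AngII and blank by 1.08, -0.47 and -0.56, with overlap between the groups and exact permutation p-values from 0.5 to 0.7. Between vericiguat + AngII and AngII they differed by -1.74, -0.14 and -0.43 relative to GAPDH, also with overlap (exact permutation p = 0.4, 0.9 and 0.8). Both reference ratios were chosen after seeing the data.

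Other matrix genes were sparse by symbol. Of 167 further genes in lists of collagens, proteoglycans, glycoproteins, elastic fibre genes, collagen processing, proteases and receptors, 34 are listed by symbol and 21 were tested. On the relative scale, 0 of the 21 were called between AngII and blank, 12 were higher in vericiguat + AngII than in AngII, and 10 were higher than in blank, where 6.42%, 77.0% and 79.2% of all tested genes were called. With the 20 highest genes left out, 3 were lower in AngII than in blank, 1 was higher in vericiguat + AngII than in AngII, and against blank 1 was higher and 4 were lower, where 13.0%, 9.69% and 30.6% of all tested genes were called. The median log2 difference of the 21 was then -0.56, 0.65 and 0.13 in these comparisons, beside 0.34, 1.01 and 1.51 for all tested genes, most of which passed the filter through the treated cells.

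Biglycan (BGN) and osteoglycin (OGN), the other small leucine-rich proteoglycans tested, were not called in any comparison with the 20 genes left out. OGN had levels of 487, 81.9 and 499.6 in blank, 1035, 296 and 1405 in AngII, and 490.1, 243 and 233 in vericiguat + AngII on that scale. Of the other collagens, only COL8A1 was tested, with a log2 difference of 1.26 between AngII and blank that was not called (limma adjusted p = 0.44).

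Called with the 20 genes left out were CCN2, TIMP1, PLAT, CD44, P4HB, ITGB8 and RECK. CCN2, a matricellular protein induced by TGF-β, had levels of 835, 255 and 806 in blank, 87.4, 70.5 and 58.1 in AngII, and 117, 70.8 and 133 in vericiguat + AngII. It was lower than blank by a log2 difference of -2.95 in AngII and -2.41 in vericiguat + AngII (limma adjusted p = 0.0056 and 0.0079), without overlap. The share of all tested genes without overlap on this scale was not determined. TIMP1, an inhibitor of matrix metalloproteinases, was lower in AngII than in blank by -5.97 (adjusted p = 0.042), and PLAT, the tissue plasminogen activator, by -5.17 (adjusted p = 0.021), each with an AngII library listed at 0. PLAT, the hyaluronan receptor CD44 and P4HB, a subunit of the collagen prolyl hydroxylase, were lower in vericiguat + AngII than in blank by -3.59, -1.81 and -1.31. ITGB8, an integrin chain, was higher by 2.47, and RECK, a membrane-anchored protease inhibitor, was higher in vericiguat + AngII than in AngII by 2.42, both from levels at or near 0. On the relative scale, 0 of the 21 genes were called lower in any comparison, where 113, 11 and 32 of all 10895 tested genes were called lower, and the differences of CD44 and P4HB between vericiguat + AngII and blank turned to 0.43 and 1.13.

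**Figure D5:**
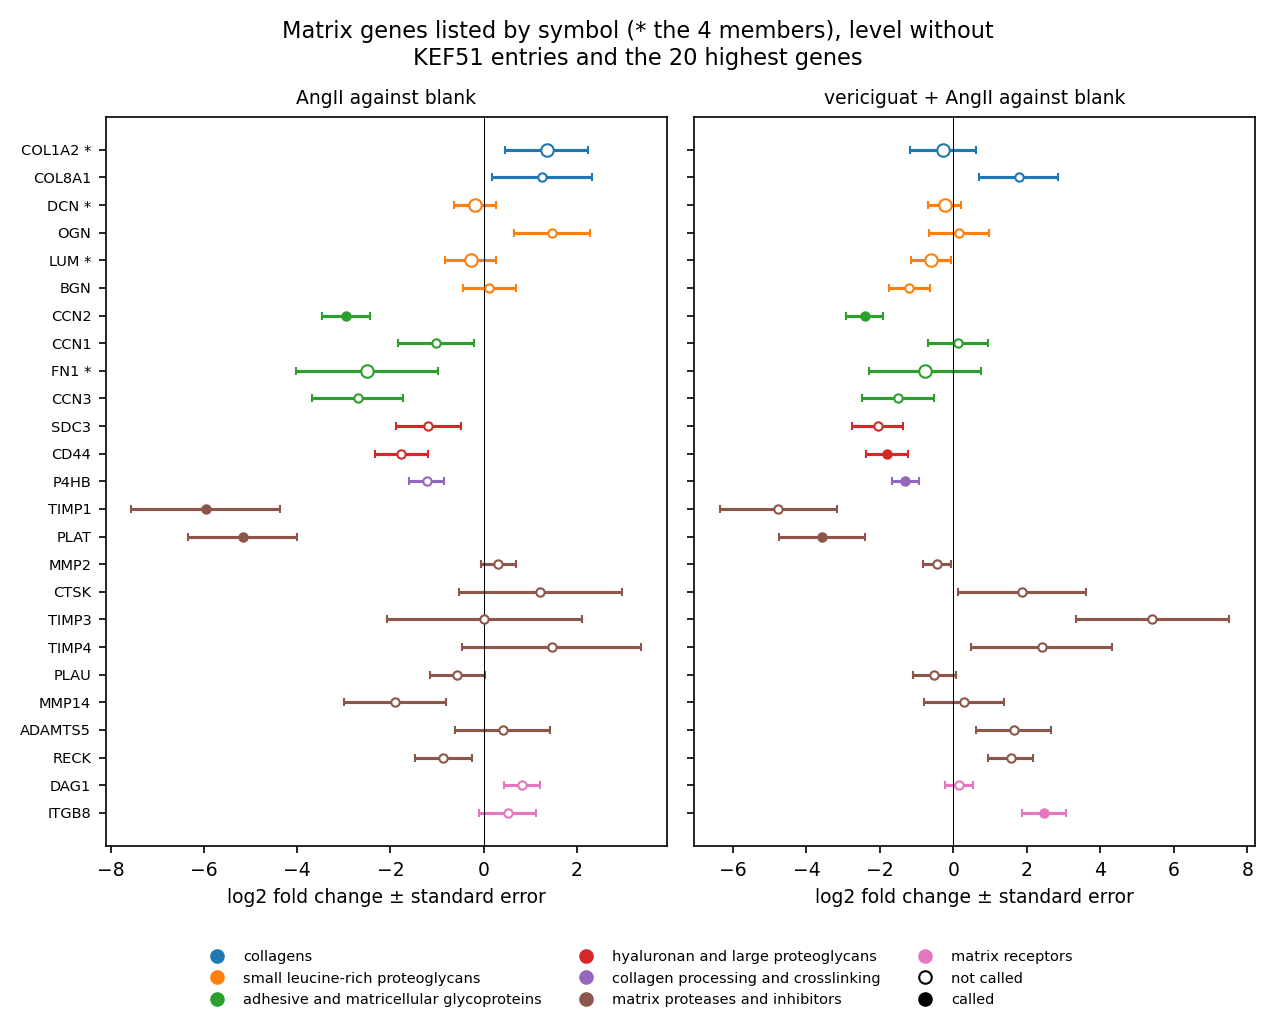
Log2 fold changes with standard errors of the 25 tested matrix genes, with the 4 members starred, for AngII against blank and vericiguat + AngII against blank, on the level with the KEF51 entries and the 20 highest genes left out. Filled points were called, among them CCN2, TIMP1 and PLAT in AngII, and no starred gene.

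Among the marker sums of other cell types, only that of cardiomyocytes kept all 3 groups apart. With the 20 highest genes left out of the sum, the 6 cardiomyocyte markers listed summed to levels of 807 to 4891 in blank, 5748 to 12955 in AngII and 15037 to 20547 in vericiguat + AngII. MYH7 alone made up 10910 to 14695 of the last. Singly, MYH7 and RYR2 kept all 3 groups apart, MYH6, TTN and PLN overlapped between groups, and NPPA was too low to be tested. The share of all tested genes that keep the groups apart on this scale was not determined. Within the AngII group, MYH6, MYH7, TTN and RYR2, which encode proteins of the contractile and calcium release machinery, were highest in library 2, which had the lowest COL1A2, DCN, LUM and FN1. The α-myosin heavy chain MYH6, for example, was at 343, 5326 and 530 in AngII libraries 1, 2 and 3. PLN, the calcium pump regulator phospholamban, went the other way, with 4171, 898 and 2930, and NPPA was listed at 0 in AngII libraries 1 and 2. The 2 endothelial markers summed to 38.8 to 42.6 in blank, 10.6 to 49.96 in AngII and 275 to 334 in vericiguat + AngII, with KDR listed at 0 in all 3 blank libraries. The 4 smooth muscle and pericyte markers summed to 766 to 1930, 521 to 812 and 1168 to 2004 in the same order, the only macrophage marker, CD14, to 77.4 to 122, 0 to 25.8 and 18.5 to 33.7, and the 2 haemoglobin genes to 42619 to 110626, 26074 to 35184 and 28280 to 59667. The 4 small leucine-rich proteoglycans summed to 1399 to 3089 in blank, 1185 to 3892 in AngII and 1657 to 2276 in vericiguat + AngII. In FPKM, the 6 cardiomyocyte markers summed to 6.8 to 9.1 in blank, 45.0 to 109 in AngII and 3812 to 6077 in vericiguat + AngII. The 4 matrix genes summed to 1.70 to 24.7, 7.09 to 25.7 and 368 to 527 in the same order. The cell types present, and their part in the levels of the 4 matrix genes, were not tested. In bulk RNA, fewer cells of a type and less RNA per cell cannot be told apart.

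Over the 9 libraries, on the relative scale and among 1084 other genes listed by symbol, the pattern most like that of COL1A2 was CUNH11orf58 (Pearson r = 0.939), followed by IGF1 (0.929) and ATP5MF (0.922). For DCN these were GPX1 (0.985), TARS1 (0.984) and CTSK (0.982). For LUM they were MARCHF5 (0.974), DCN (0.969) and TARS1 (0.967), and for FN1 they were DNAJC25 (0.970), PNPLA8 (0.960) and HIF1A (0.955). Among the 4 genes, the correlation was highest between DCN and LUM and lowest between COL1A2 and FN1 (0.638), the latter with 220 other genes closer to COL1A2. All these values share the 9 libraries and their scaling, and are given as a description.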

How the data were processed

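RNA-seq of 9 CF libraries was analysed, grouped by their labels. The authors removed low-quality reads and deposited gene expression as FPKM, and the submitters' processing notes name FastQC 0.11.9, Trimmomatic 0.39, HISAT2 2.2.1, featureCounts 2.0.1 and OryCun2.0. The depth is unknown. The relative level is FPKM per 1000000 of the summed FPKM without the 13 KEF51 entries. Values were tested as log2(value + 1) with limma 3.58.1 in R 4.3.3 (lmFit, eBayes with trend, all 9 libraries), restricted to genes reaching FPKM 1 in 3 or more libraries. Calls needed a log2 difference of 1 or more in size together with a Benjamini-Hochberg p under 0.05. A pseudocount of 1 understates the change of low genes. Ratios, shares and ranks were compared by exact permutation (scipy 1.17.1), where 3 against 3 gives 0.1 at the smallest. Of the tests, only the limma fit was also run on simulated data, and its outcome is not given here. The genes named are the 4 members, the list genes that were called or had the highest levels, and for each member the 3 most correlated genes. Members and lists were chosen with earlier results of these data known. Alternatives were other pseudocounts, filters, scalings, fits of the 2 compared groups alone, a replicate block, no trend, and each library left out.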

Additional observations from a re-analysis of the deposited data

How the results depend on the processing

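On the deposited scale, the 4 matrix genes were called in both comparisons of the vericiguat + AngII group under every alternative run, except that FN1 was not tested at a mean FPKM of at least 5, where the other 3 were called. The genes called between AngII and blank, 169 as reported, numbered 969 and 1190 with pseudocounts of 0.1 and 0.01, 79 with no filter, 342 at a mean FPKM of at least 5, 0 with only the compared groups, 20 after rescaling all entries to the same sum, and 0 to 309 with each library left out in turn. At a mean FPKM of at least 5, 3113 genes were called against AngII and 3110 against blank for vericiguat + AngII, since fewer genes were tested. With each library left out, 0 to 1 of the 4 genes were called between AngII and blank, and the log2 difference ranged from -0.18 to 1.23 for DCN and from -0.33 to 1.00 for LUM.

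The relative level depended on the sum. For AngII against blank, vericiguat + AngII against AngII and vericiguat + AngII against blank, the genes called were 1723, 1083 and 3022 with median-ratio scaling, 1740, 925 and 2304 with quantile normalization, and 1414, 1056 and 3329 without the 20 highest genes. In all of these, 0 of the 4 genes were called against blank. The log2 differences of vericiguat + AngII against blank were then -0.30, -0.47 and -0.29 for COL1A2, -0.28, -0.37 and -0.24 for DCN, -0.65, -0.72 and -0.62 for LUM, and -0.82, -1.17 and -0.78 for FN1. Against AngII they were -1.91, -1.77 and -1.64 for COL1A2 and -0.68, -0.26 and -0.34 for LUM, and for DCN -0.40 with median-ratio scaling and -0.056 without the 20 genes. Between AngII and blank, DCN turned to -0.55 and LUM to -0.46 with quantile normalization, and to -0.18 and -0.28 without the 20 genes. The cause was not tested.

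Other settings moved counts on the relative scale. With a pseudocount of 10, the genes called were 149, 5056 and 5313 in the same order, and 1 of the 4 genes was called against AngII. At a mean FPKM of at least 5 they were 356, 2254 and 2520. With only the compared groups, 0 genes were called between AngII and blank, and 3 of the 4 genes were called against AngII and 0 against blank. DCN was no longer called against blank with a pseudocount of 0.1 or with no filter, where 0 of the 4 genes were called. With each library left out, 67 to 2037 genes and 0 to 1 of the 4 were called between AngII and blank, 0 to 3 of the 4 against AngII, and 0 to 3 against blank. The log2 difference then ranged from -0.81 to 1.08 for DCN and -1.02 to 1.17 for LUM between AngII and blank, from -0.81 to 1.28 for COL1A2 against AngII, and from -0.21 to 2.24 for FN1 against blank. The lowest values came from leaving out blank library 2, and for COL1A2 AngII library 2. DCN kept its call against blank only without blank library 1 or AngII library 2. Without blank library 2, FN1 was lower in AngII than in blank by -2.93 on the relative scale and was called.

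Replicate numbers are shared between the groups, but same-numbered libraries did not deviate together (correlations from -0.058 to 0.093), so they were not treated as pairs. With a replicate block, 7 genes were called between AngII and blank on the deposited scale and 448 on the relative scale, and 2 of the 4 genes against AngII on the relative scale. For ratios, shares and ranks, all 240 values with a library left out moved by less than the spread within the groups. With 3 libraries per group, leaving a library out always moves a group mean by less than the SD of that group. This check could therefore not fail, and no conclusion on stability or direction is drawn from it. The mean percentile rank of COL1A2 was higher in vericiguat + AngII than in blank by 14.5 (exact permutation p = 0.1, adjusted 0.33 over 10 ranks). This difference changed sign to -6.86 when only tested genes were ranked. The depth is unknown, so counting error could not be given.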

Other observations

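Genes of the contractile myofibroblast were described beside the matrix genes. ACTA2, the α-smooth muscle actin, had levels per 1000000 of summed FPKM of 834, 151 and 746 in blank, 132, 0 and 12.9 in AngII, and 566, 498.7 and 835 in vericiguat + AngII, with the KEF51 entries and the 20 highest genes left out of the sum. All AngII libraries lay below all others, but the limma adjusted p was 0.057 against blank and 0.051 for vericiguat + AngII against AngII, so the gene was not called on this scale. TPM2, a tropomyosin, was lower in AngII than in blank by a log2 difference of -2.69 (limma adjusted p = 0.048). Its levels were 1140.5, 157 and 942 in blank and 140.2, 43.6 and 100.8 in AngII. TPM1, another tropomyosin, went the other way, with 734, 551 and 742 in blank, 1085, 847 and 1288 in AngII, and 1680, 1240.2 and 1024 in vericiguat + AngII. It was not called between AngII and blank (log2 difference 0.66, limma adjusted p = 0.15), although these groups did not overlap. CALD1, the actin-binding caldesmon, had 206, 116 and 238 in blank, 143, 159.6 and 95.4 in AngII, and 90.3, 80.9 and 117 in vericiguat + AngII, with a log2 difference of -0.46 between AngII and blank (limma adjusted p = 0.44). On the relative scale, 0 of these 4 genes were called between AngII and blank, where 6.42% of all tested genes were called. In vericiguat + AngII, 3 of the 4 were called higher than in AngII and 1 higher than in blank, beside 77.0% and 79.2% of all tested genes called. ACTA2 was among the 3, with a log2 difference of 6.57 (limma adjusted p = 0.0016). With the 20 genes left out, the share of all tested genes without overlap between groups was not determined.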
